A study of Drosophila melanogaster with 21 samples.

Results

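Loss of Not1 was set directly against loss of Pop2 in DL1 cells, a cell line of Drosophila melanogaster, by comparing the mRNA levels of the 2 knockdowns with each other. All genes of the RNA interference (RNAi) table that carry a FlyBase gene ID entered the comparison, 17555 in all, of which 9051 had an adjusted p-value in both of the authors' comparisons with the control and were tested. The Not1 RNAi and Pop2 RNAi groups hold 3 samples each, 6 of the 21 samples of the series. Both groups are wild-type DL1 cells, bathed with 20 µg of double-stranded RNA against the named gene for 60 min in serum-free medium and harvested after 48 h. LacZ RNAi cells (3 samples), treated in the same way with double-stranded RNA for a bacterial gene, were the control. All samples come from 1 cell line. RNA was selected by its poly(A) tail and sequenced by ClickSeq, which ends cDNAs with azido-nucleotides and attaches adapters to them chemically, without fragmenting the RNA.

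CCR4-NOT is the main complex that shortens the poly(A) tails of cytoplasmic mRNAs, a step that leads to decapping and decay. Not1 is the large scaffold on which the other subunits assemble, and Pop2, known as CAF1 in other species, is one of its 2 deadenylases, which also docks the other one, twin (CCR4), onto the scaffold. RNA-binding repressors such as Pumilio and the microRNA machinery bring the complex to their targets.

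The authors' deposited table gives group means of normalized counts, from which whole reads per library were solved for 17522 genes of Not1 RNAi and 17525 genes of Pop2 RNAi. The 3 libraries of a group are called A, B and C by falling size factor, which is not their replicate number. Resolved reads came to 7338365, 6402119 and 1985631 in Not1 RNAi and to 7667076, 6877658 and 5465981 in Pop2 RNAi. Not1 RNAi library C stood apart: across genes it correlated at 0.925 with both libraries of its group, which correlated at 0.995 with each other, while the Pop2 RNAi libraries correlated at 0.986 to 0.994. The median ribosomal protein gene lay 1.37 (log2) above the other Not1 RNAi libraries in library C. LacZ RNAi library C stood apart in the same way (r of 0.904 and 0.902, ribosomal protein genes 1.43 higher). Each named difference that loses its call without Not1 RNAi library C is therefore given with its value and adjusted p without it.

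The targeted genes were checked first. Not1 (FBgn0085436) was at 1718, 1702 and 1824 normalized counts in Not1 RNAi libraries A, B and C, against 20060, 18085 and 12344 in LacZ RNAi. In Pop2 RNAi the reads of Not1 were not resolved, and the authors' deposited table gives a mean of 28289. Pop2 (FBgn0036239) was at 26.3, 25.8 and 34.1 in Pop2 RNAi, against 683, 707 and 297 in Not1 RNAi and 609, 642 and 477 in LacZ RNAi. Each target was lowest in its own knockdown, with no overlap with the control, while Pop2 in Not1 RNAi library C also lay below the control libraries. The differences, here and below Not1 RNAi minus Pop2 RNAi on the log2 scale with its standard error, were -4.02 ± 0.18 for Not1 and 4.32 ± 0.32 for Pop2.

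Of the 9051 genes, 1014 (11.2%) differed between the knockdowns at an adjusted p below 0.05. They comprised 617 genes higher in Not1 RNAi (6.82%) and 397 lower (4.39%). The difference was at least 2-fold for 349 genes (3.86%), of which 281 (3.1%) were higher and 68 (0.751%) lower in Not1 RNAi. It was at least 4-fold for 57 higher and 2 lower genes. These counts include the targets, Pop2 among the higher genes and Not1 among the lower ones, where Taf12L was the other at 4-fold. The median difference was 0.95 among the higher genes, or 1.93-fold, -0.74 among the lower genes, or 1.67-fold, and 0.07 among all genes tested. Centred on the median of genes with a mean of at least 50, the contrast called 484 genes higher and 505 lower, so the excess of higher genes depends on the scaling.

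**Figure D1:**
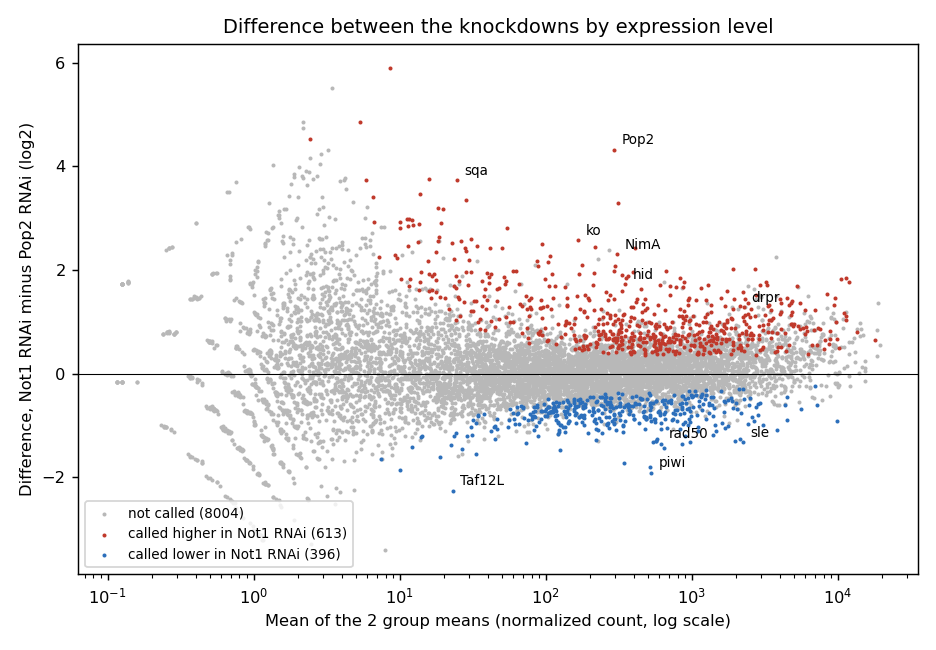
Difference between Not1 RNAi and Pop2 RNAi (log2, y axis) against the mean of both group means in normalized counts (x axis, log scale), 1 point per gene resolved in both groups, red where called higher and blue where called lower in Not1 RNAi. Genes called higher reach larger differences than genes called lower, with 57 against 2 at 4-fold or more among all calls. The 57 include the target Pop2, and the 2 include the target Not1, which is not plotted.

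The test uses the authors' fold changes and errors with the shared control error removed, and its count depends on how the spread is estimated. Without Not1 RNAi library C, 465 of 8878 genes (5.24%) were called, 273 higher (3.08%) and 192 lower (2.16%), of which 456 were also called with all libraries and in the same direction. None of the 1008 called genes with a value changed sign, while 65 moved by over 1.5-fold, all of them higher in Not1 RNAi. On the solved library values, limma called 405 genes, and between 50 (without Pop2 RNAi library B) and 516 (without Not1 RNAi library B) with 1 library left out. It called more than the contrast in 2 settings, 2289 without libraries C of Not1 RNAi and LacZ RNAi and 2906 with library quality weights. The libraries did not overlap for 1000 of the 1009 called genes resolved in both groups, beside 33.6% of all resolved genes. The calls were made on these same libraries, so this describes them and is no separate support. The same holds wherever a called gene is said below to have no overlap between the knockdowns.

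**Figure D2:**
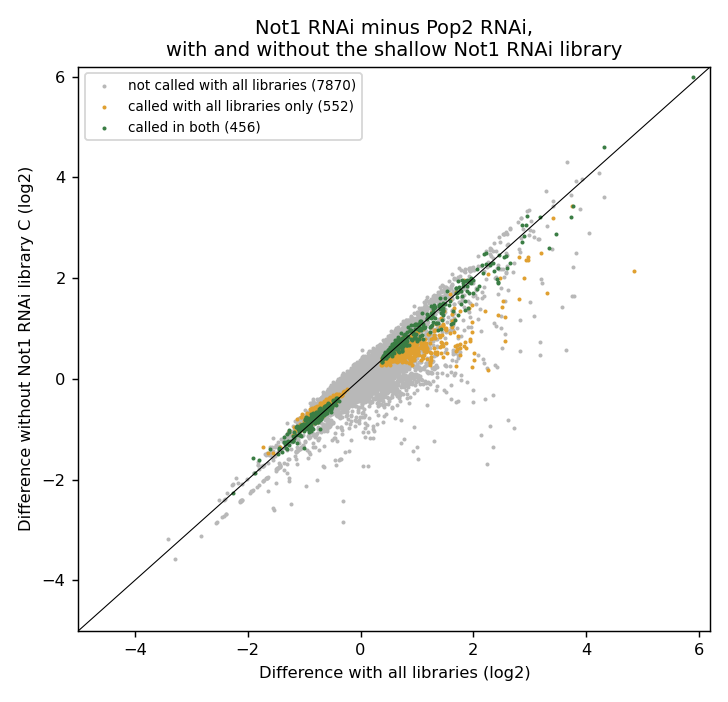
Difference between Not1 RNAi and Pop2 RNAi (log2) with all libraries (x axis) and without Not1 RNAi library C (y axis), 1 point per gene, with the line of equality. The 456 genes called in both fits lie near the line, and genes called only with library C are mostly higher in Not1 RNAi and lie below it.

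Among the genes highest in Not1 RNAi relative to Pop2 RNAi were several that LacZ RNAi cells hardly expressed. NimA (FBgn0261514), of the Nimrod family of phagocytosis-linked receptors, was at 619, 397 and 519 normalized counts in Not1 RNAi, at 117, 90.3 and 104 in Pop2 RNAi, and at 0.985, 0 and 0 in LacZ RNAi. It differed by 2.30 ± 0.25 (adjusted p 2.32e-16). The axon guidance gene ko was at 267, 246 and 350 in Not1 RNAi, at 51.1, 47.8 and 42.7 in Pop2 RNAi, and at 0.985, 5.48 and 0 in LacZ RNAi. For both genes every library of either knockdown lay above the control. The knockdowns did not overlap, but this was a condition for naming genes among the largest rises and is no separate support. The ko difference was 2.57 ± 0.25 (adjusted p 7.92e-22).

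The kinase gene sqa, whose product phosphorylates myosin light chain, had the largest difference among the named genes other than the targets, 3.74 ± 0.67 (adjusted p 2.9e-06). It was at 29.5, 30.7 and 78.2 in Not1 RNAi and at 2.07, 2.28 and 5.69 in Pop2 RNAi, so it rests on low values. The presynaptic gene fusl was at 46.2, 31.5 and 65.9 against 8.98, 10.6 and 6.64, a difference of 2.36 ± 0.49. The serpin gene Spn31A (2.59 ± 0.56), the corepressor gene nvy (2.43 ± 0.53), the phosphoserine phosphatase gene aay (2.42 ± 0.44) and dtr (2.22 ± 0.44) were also called with and without library C. For 4 of the 12 largest rises the call was lost in the contrast without library C. That fit kept the dispersion solved with all libraries. In limma, 38 of the 79 called named genes lost the call without Not1 RNAi library C alone. Without libraries C of both Not1 RNAi and LacZ RNAi 0 did. The 79 were named because they were called on largely these same libraries, so a kept call is no separate support. The gene tbc was at 43.2, 35.6 and 210 in Not1 RNAi and at 13.1, 12.1 and 14.2 in Pop2 RNAi, and its difference of 2.81 became 1.58 without library C (adjusted p 0.269). The same held for the potassium channel gene Sh (2.52, then 1.55 with adjusted p 0.304), the adhesion gene Con (2.50, then 1.42 with adjusted p 0.256) and the arginine kinase gene Argk (2.20, then 1.35 with adjusted p 0.312).

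**Figure D3:**
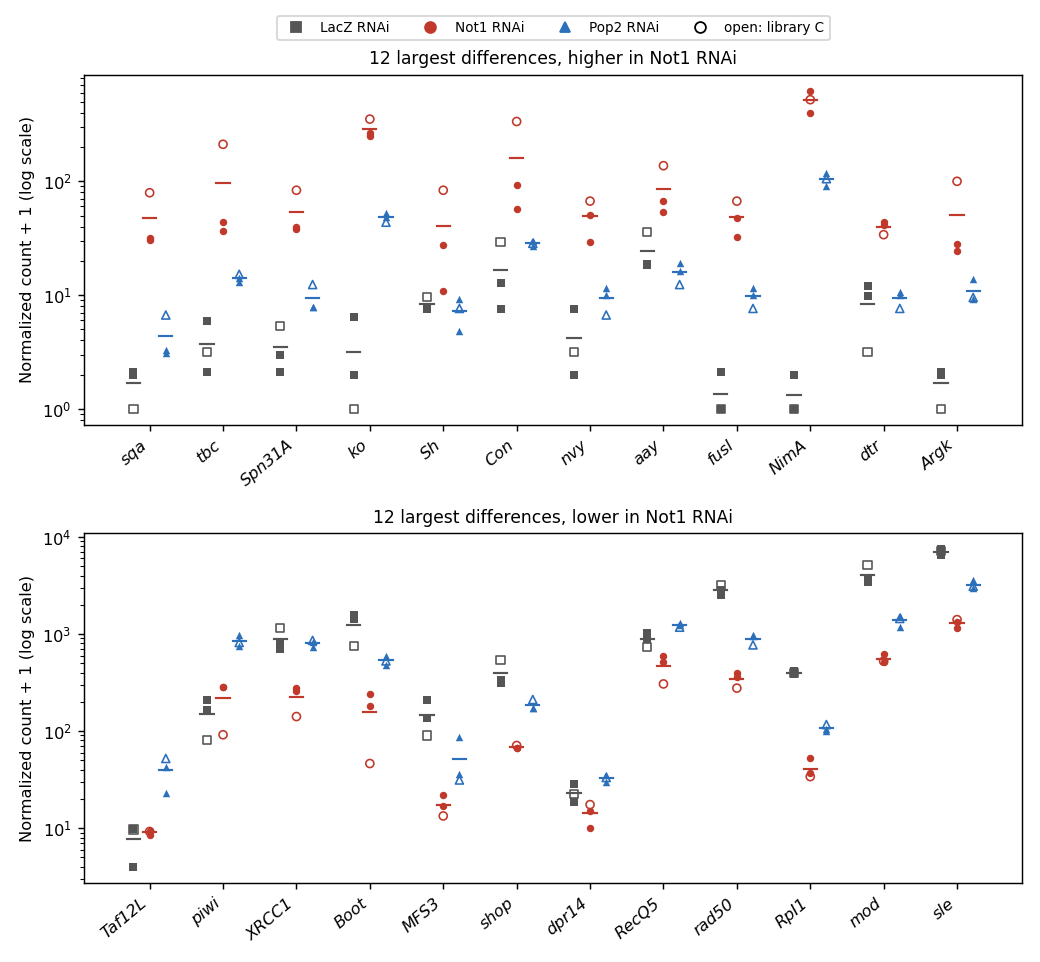
Normalized counts plus 1 (y axis, log scale) of the 12 largest rises (top) and 12 largest falls (bottom) in each library of LacZ RNAi (grey squares), Not1 RNAi (red circles) and Pop2 RNAi (blue triangles), with library C open and the group mean as a bar. In tbc, Sh, Con and Argk the open Not1 RNAi circle lies far above the other red points, while in ko and NimA all red points lie together.

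Genes lowest in Not1 RNAi relative to Pop2 RNAi included genes of DNA repair, nucleolar genes and piRNA pathway genes. The Argonaute gene piwi, which acts with piRNAs to silence transposons, was at 282, 283 and 90.6 in Not1 RNAi, at 743, 965 and 816 in Pop2 RNAi and at 164, 206 and 80.3 in LacZ RNAi. It lay above every control library in all Pop2 RNAi libraries and differed by -1.91 ± 0.38 (adjusted p 3.35e-05). XRCC1, a scaffold of DNA single-strand break repair, was at 256, 275 and 140 in Not1 RNAi, at 739, 822 and 858 in Pop2 RNAi and at 780, 701 and 1150 in LacZ RNAi. Here Pop2 RNAi overlapped the control and only Not1 RNAi lay below both, with a difference of -1.80 ± 0.25 (adjusted p 9.43e-11). The gene rad50, which encodes a subunit of the complex that detects double-strand breaks, was at 360, 394 and 276 in Not1 RNAi, at 970, 951 and 771 in Pop2 RNAi and at 2836, 2545 and 3172 in LacZ RNAi. Both knockdowns lay below every control library and Not1 RNAi below Pop2 RNAi, with a difference of -1.35 ± 0.16 (adjusted p 1.7e-13). For XRCC1 and rad50, no overlap between the knockdowns was a condition for naming them among the largest falls.

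The nucleolar gene sle was at 1159, 1324 and 1404 in Not1 RNAi, at 2974, 3571 and 3099 in Pop2 RNAi and at 7457, 6437 and 7148 in LacZ RNAi. Its difference of -1.32 ± 0.12 had an adjusted p of 1.03e-23. The nucleolar gene mod (-1.33 ± 0.19), the helicase gene RecQ5 (-1.36 ± 0.21), the sulfite oxidase gene shop (-1.47 ± 0.25), dpr14 (-1.38 ± 0.38) and Taf12L (-2.26 ± 0.53) also kept their calls without library C. Boot, which acts in export of piRNA precursors, differed by -1.73 and by -1.35 without library C (adjusted p 0.0555). The transporter gene MFS3 differed by -1.55 and by -1.46 without it (adjusted p 0.058).

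Of 9 CCR4-NOT subunits tested, 3 were higher and 1 lower in Not1 RNAi, beside 6.82% higher and 4.39% lower among all genes tested. Both targets are among these calls, and the others were Rcd-1 and Rga. Rcd-1, the CAF40 subunit, was at 999, 1052 and 873 in Not1 RNAi, at 585, 579 and 605 in Pop2 RNAi and at 1306, 1427 and 1078 in LacZ RNAi. Its Not1 RNAi libraries all lay between those of Pop2 RNAi and the control, and the difference was 0.74 ± 0.13 (adjusted p 3.96e-06). Rga, the NOT2 subunit, was at 3350, 3378 and 7256 in Not1 RNAi and at 2164, 2332 and 2359 in Pop2 RNAi. Its difference of 1.03 ± 0.32 became 0.56 without library C (adjusted p 0.499).

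Of 31 poly(A) tail binding and other decay factors, 0 were higher and 4 lower in Not1 RNAi, beside 6.82% and 4.39% among all genes tested. Limma called 1 member. The list median was -0.04 beside 0.07. The Ski complex helicase gene tst was at 449, 405 and 453 in Not1 RNAi and at 624, 660 and 643 in Pop2 RNAi, a difference of -0.57 ± 0.11 (adjusted p 7.78e-06). Dis3, an exosome nuclease, differed by -0.72 ± 0.17, and the decapping scaffold gene Ge-1 by -0.49 ± 0.12. The helicase gene Upf1 of nonsense-mediated decay differed by -0.49, and by -0.41 without library C (adjusted p 0.0535). Among 15 repressors, 1 was higher and 1 lower. Dcr-1, the microRNA-processing enzyme, was at 282, 294 and 268 in Not1 RNAi and at 558, 553 and 447 in Pop2 RNAi (-0.88 ± 0.21). The repressor gene pum was at 2927, 2570 and 8624 against 1965, 1768 and 1949, and its difference of 1.31 became 0.54 without library C (adjusted p 0.647).

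Ribosome biogenesis genes were lower in Not1 RNAi than in Pop2 RNAi in 8 of 21 members and higher in 0, beside 4.39% lower among all genes tested, and all 8 kept the call without library C. Limma called 8 members as well. The list median was -0.38. RpI1, the largest subunit of RNA polymerase I, was at 35.6, 51.4 and 32.9 in Not1 RNAi, at 100, 105 and 116 in Pop2 RNAi and at 382, 412 and 399 in LacZ RNAi. The order of the groups held in every library, and the difference was -1.35 ± 0.22 (adjusted p 1.12e-07). No overlap between the knockdowns was a condition for naming RpI1 among the largest falls. The nucleolar genes nop5 (-1.20 ± 0.26), Nopp140 (-1.01 ± 0.17) and Mybbp1A (-0.81 ± 0.19) were lower as well. Of 81 cytosolic ribosomal protein genes, 0 were called by the contrast or by limma (5 at an unadjusted p below 0.05), and their median of 0.47 became -0.11 without library C. None of 72 mitochondrial ribosomal protein genes was called by either (4 at an unadjusted p below 0.05, median 0.08). Of 36 translation initiation factors only eIF4G1 was called, at -0.84 and at -0.78 without library C (adjusted p 0.0697), and the list median of 0.43 became -0.04. Among 20 aminoacyl-tRNA synthetases, IleRS (-0.55 ± 0.14) and GlyRS (-0.87, then -0.66 with adjusted p 0.194) were lower.

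Proteasome genes were called higher in Not1 RNAi in 6 of 34 members and lower in 0, beside 6.82% higher among all genes tested, but 0 of 34 were called without library C and 0 by limma on the full set (15 passed an unadjusted p of 0.05 in the contrast). Their median was 0.32 with library C and 0.33 without it. The base subunit gene Rpt6 was at 1474, 1587 and 1425 in Not1 RNAi and at 961, 937 and 1085 in Pop2 RNAi. Its difference of 0.59 (adjusted p 0.0339) became 0.62 without library C (adjusted p 0.0804). The differences of Rpt6R (0.58, then 0.44 with adjusted p 0.219) and Rpt3 (0.50, then 0.35 with adjusted p 0.331) shrank without library C. So did that of Rpn7 (0.45, then 0.32 with adjusted p 0.352).

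Glycolysis genes were lower in Not1 RNAi in 5 of 12 members and higher in 0, beside 4.39% lower among all genes tested, with a median of -0.42, but 0 were called by limma. The aldolase gene Ald1 was at 1315, 1306 and 1499 in Not1 RNAi, at 2104, 1884 and 1922 in Pop2 RNAi and at 4554, 4800 and 4042 in LacZ RNAi. Both knockdowns lay below the control and Not1 RNAi below Pop2 RNAi in every library, and the difference was -0.53 ± 0.12 (adjusted p 0.000426). The pyruvate kinase gene PyK differed by -0.45 ± 0.10 and the lactate dehydrogenase gene Ldh by -0.55 ± 0.14. The enolase gene Eno (-0.53, then -0.53 with adjusted p 0.0914) and Gapdh2 (-0.39, then -0.31 with adjusted p 0.267) lost their calls without library C. None of 61 oxidative phosphorylation genes and none of 3 polyamine synthesis genes was called by the contrast or by limma (4 and 1 at an unadjusted p below 0.05). Among 15 lipid genes, Hacd2 (-1.23 ± 0.38) was lower. The desaturase gene Desat1 (-0.46, then -0.40 with adjusted p 0.0851) and the lipid regulator gene SREBP (0.69, then 0.55 with adjusted p 0.116) were called with library C and not without it.

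Cell cycle genes were lower in Not1 RNAi in 7 of 33 members, and 1 was higher, beside 4.39% and 6.82% among all genes tested, with a median of -0.25. The mitotic cyclin gene CycB was at 224, 254 and 189 in Not1 RNAi, at 425, 439 and 409 in Pop2 RNAi and at 669, 591 and 581 in LacZ RNAi. The groups did not overlap, and the difference was -0.89 ± 0.13 (adjusted p 8.82e-09). The ribonucleotide reductase gene RnrL (-0.97 ± 0.17), the E2F partner gene Dp (-0.65 ± 0.11) and the mitotic kinase gene polo (-0.53 ± 0.13) were also lower. The cyclin gene CycB3 (-0.92, then -0.73 with adjusted p 0.0953), the replication licensing gene dup (-0.38, then -0.32 with adjusted p 0.225) and CycD (-0.38, then -0.33 with adjusted p 0.196) lost their calls without library C. Rbf, the retinoblastoma family gene, was the higher one (0.40).

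Some genes of cell death and stress signalling were among those higher in Not1 RNAi. Of 12 apoptosis and p53 genes, 3 were higher and 0 lower, beside 6.82% higher among all genes tested. Limma called 2 members. The list median was 0.09 beside 0.07 among all genes tested, with 7 members above 0 and 5 below. The death inducer gene rpr was at 435, 344 and 667 in Not1 RNAi, at 115, 105 and 119 in Pop2 RNAi and at 9.85, 18.6 and 8.68 in LacZ RNAi. All groups were apart from each other, and the difference was 2.07 ± 0.28 (adjusted p 5.96e-11). The death inducer gene hid was at 314, 268 and 1038 in Not1 RNAi and at 144, 158 and 182 in Pop2 RNAi, and its difference of 1.72 became 0.85 without library C (adjusted p 0.463). The effector caspase gene Drice differed by 0.49 ± 0.12.

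Of 21 JNK and JAK/STAT response genes, 5 were higher and 0 lower in Not1 RNAi, beside 6.82% higher among all genes tested. Without library C 4 were also called, and limma called 3 members on the full set. The list median of 0.49 became 0.15 without library C. With all libraries 15 members lay above 0 and 6 below. The matrix metalloproteinase gene Mmp2 was at 1057, 986 and 964 in Not1 RNAi, at 605, 651 and 545 in Pop2 RNAi and at 49.3, 33.9 and 36.9 in LacZ RNAi. Its difference was 0.74 ± 0.14 (adjusted p 1.73e-05). Mmp1 differed by 0.96 ± 0.18 and Jra, the fly Jun, by 0.73 ± 0.17. The JNK phosphatase gene puc was at 1618, 1339 and 4217 against 985, 946 and 951, and its difference of 1.31 became 0.62 without library C (adjusted p 0.487).

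**Figure D4:**
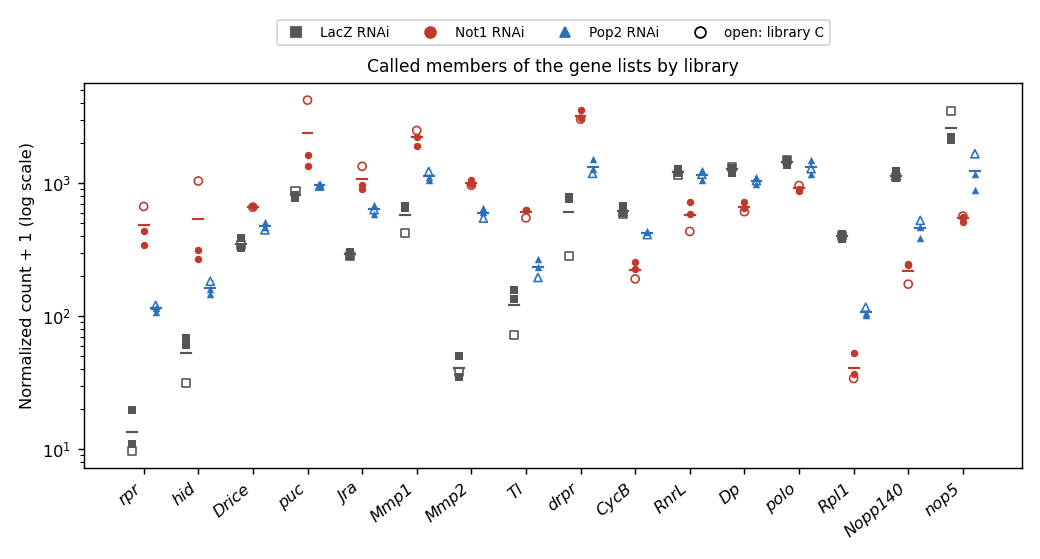
Normalized counts plus 1 (y axis, log scale) of 16 called gene list members in each library of LacZ RNAi (grey squares), Not1 RNAi (red circles) and Pop2 RNAi (blue triangles), with library C open and group means as bars. Cell death, JNK and receptor genes from rpr to drpr lie higher in Not1 RNAi than in Pop2 RNAi, cell cycle and ribosome biogenesis genes lower, and hid and puc have a high open circle.

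Of 19 antimicrobial and recognition genes, 2 were higher and 1 lower, counts near the shares of 6.82% and 4.39% among all genes tested. The receptor gene Tl was at 630, 628 and 548 in Not1 RNAi, at 266, 235 and 194 in Pop2 RNAi and at 134, 155 and 71.6 in LacZ RNAi, a difference of 1.38 ± 0.22 (adjusted p 1.04e-07). Its ligand gene spz differed by 1.21, and by 0.90 without library C (adjusted p 0.0692). PGRP-LE, a peptidoglycan receptor gene, differed by -0.74 and by -0.54 (adjusted p 0.251). Of 12 heat shock genes, 1 was higher, the co-chaperone gene stv (1.05 ± 0.22), and 1 lower, Droj2 (-0.45, then -0.35 with adjusted p 0.242 without library C). In 3 further lists every call was lost without library C. These were the chaperone gene Gp93 (1.03, then 0.47 with adjusted p 0.609) and Atf3 (0.95, then 0.38 with adjusted p 0.741) of 14 endoplasmic reticulum and integrated stress genes, and the oxidative stress regulator gene cnc (1.22, then 0.54 with adjusted p 0.629) of 18 glutathione transferase and oxidative stress genes. The others were the receptor gene Egfr (0.87, then 0.85 with adjusted p 0.118) and its ligand gene spi (-0.44, then -0.33 with adjusted p 0.333) of 16 Ras/MAPK genes. Among 24 Notch, Wnt and Hippo genes only the Wnt receptor gene fz2 was called (1.78 ± 0.46), and of 12 ecdysone response genes none was by the contrast or by limma (4 at an unadjusted p below 0.05).

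Marker lists of cell types were read as a check on the cells. Of 18 hemocyte markers, 3 were higher in Not1 RNAi and 0 lower, beside 6.82% higher among all genes tested. The engulfment receptor gene drpr was at 3538, 3091 and 3031 in Not1 RNAi, at 1510, 1280 and 1185 in Pop2 RNAi and at 762, 782 and 282 in LacZ RNAi, a difference of 1.28 ± 0.31. Sr-CI, a scavenger receptor gene, differed by 1.86 ± 0.46, and He by 1.12, which became 0.59 without library C (adjusted p 0.609). The hemocyte marker srp was at means of 4358 in LacZ RNAi, 5940 in Not1 RNAi and 4472 in Pop2 RNAi. Hml was at 30.4, 13.9 and 14.7 in the same order. The median LacZ RNAi mean of the 18 hemocyte markers was 25.6, so the level of srp does not stand for the list. Of 7 germline and gonad markers only piwi was called. Of 6 neuron markers only Syx1A was called (1.53, then 0.51 with adjusted p 0.784), and of 8 muscle markers none was by the contrast or by limma (1 at an unadjusted p below 0.05). Among 15 epithelium markers baz (0.76 ± 0.19), Fas3 (1.07, then 0.70 with adjusted p 0.165) and shg (0.98, then 0.47 with adjusted p 0.59) were higher. In bulk RNA, fewer cells of a type and less RNA per cell cannot be told apart, and the part of other cell types in these differences was not tested.

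**Figure D5:**
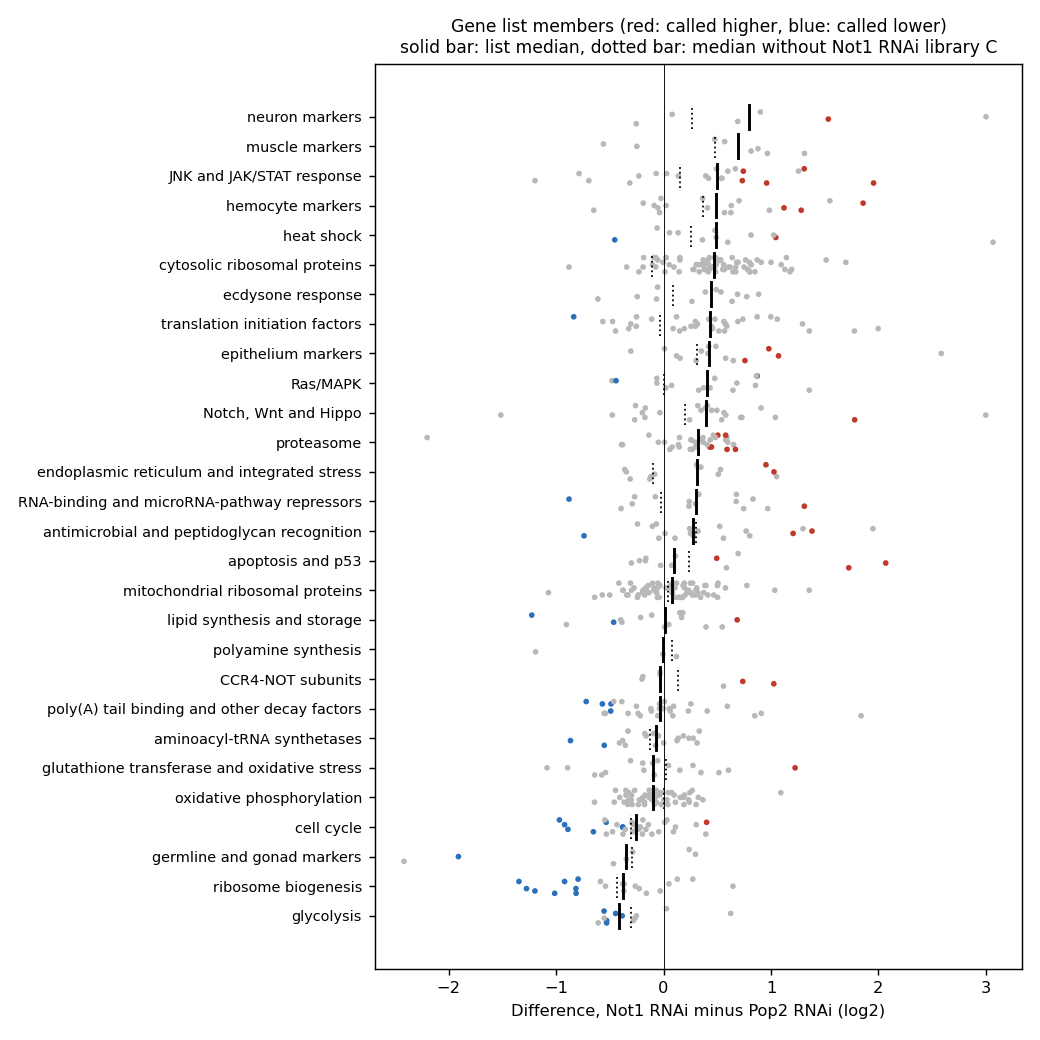
Difference between Not1 RNAi and Pop2 RNAi (log2, x axis) of each tested member of 28 gene lists (rows), the targets Not1 and Pop2 left out of the points, with calls in colour, the list median as a solid bar and the median without Not1 RNAi library C as a dotted bar. The medians of cytosolic ribosomal proteins and translation initiation factors move from 0.47 and 0.43 to below 0, while that of ribosome biogenesis is -0.38 with library C and -0.43 without it.

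Each knockdown was also set beside the control in the authors' deposited table, whose 2 comparisons share the LacZ RNAi samples. The authors called 25.7% of the 9051 genes higher and 24.2% lower in Not1 RNAi, and 18.8% higher and 20.1% lower in Pop2 RNAi. Of the 617 genes higher in Not1 RNAi than in Pop2 RNAi, the authors' deposited table calls 555 higher than the control in Not1 RNAi and 358 in Pop2 RNAi. Their median deposited means were 213.9 in LacZ RNAi, 633.2 in Not1 RNAi and 339.3 in Pop2 RNAi. Of the 397 lower genes, the authors' deposited table calls 358 lower than the control in Not1 RNAi and 218 in Pop2 RNAi, with median deposited means of 554.4, 218.7 and 371.5. Both sets were chosen by the difference of the same 2 deposited fold changes. The order of the knockdowns in these counts and medians follows largely from that choice and is no separate support.

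Opposite calls against the control were made in the authors' deposited table for 2 genes, the target Not1 and CG12512. CG12512 (FBgn0031703, dm6 chr2L:5339132-5342234, minus strand) was at 164, 155 and 107 in Not1 RNAi, at 40.1, 33.4 and 31.3 in Pop2 RNAi and at 57.1, 54.8 and 47.7 in LacZ RNAi. Every Not1 RNAi library lay above the control libraries and every Pop2 RNAi library below them. In the authors' deposited table the fall in Pop2 RNAi had an adjusted p of 0.0459, so the opposite call is lost at a limit of 0.01. The difference between the knockdowns was 2.07 ± 0.24 (adjusted p 6.07e-15).

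At the other end, Ist1, HBS1, chas, puf, CG17202 and scra were the 6 genes closest to equal at a mean of at least 1000. Ist1, for example, was at 1231, 1136 and 939 in Not1 RNAi and at 1078, 1089 and 1169 in Pop2 RNAi, so its libraries overlapped. The standard errors of these differences ran from 0.13 for HBS1 to 0.35 for chas, so equality is known only to that precision.

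The genes higher in Not1 RNAi had longer annotated transcripts than the rest. The median of the longest annotated 3' untranslated region was 669 bases among them, 317 bases among the lower genes and 309 bases among all tested genes. The median gene length was 3492, 2601 and 2055 bases in the same order, and the median span on the genome 7751, 3460 and 2690 bases. Noncoding RNA genes made up 1.62% of the higher, 1.26% of the lower and 5.28% of all tested genes. These medians are a description, and the part of gene length in the calls was not tested. The 2 sets also differed in their level in the control: 20.6% of the higher genes had a LacZ RNAi mean below 20, against 26.1% of all tested genes, and 1 of the 397 lower genes did.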

How the data were processed

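Per the submitters' processing notes, fastp 0.14.1, HISAT2 2.1.0, UMI-tools 1.0.1, featureCounts and DESeq2 1.23.110 were used with build dm6; no source used here says whether counting used strand, so overlapping genes may share reads. Per the file headers, the signal values are normalized counts averaged over a group. The authors also deposited log2 fold changes of each knockdown relative to LacZ RNAi, their standard errors, and p-values with adjusted p-values. No counts per sample were used, so the planned count test gave way to the planned fallback. Lines without a gene (7, at most 0.0561% of normalized counts) were left out.

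Each deposited mean, printed to 15 digits, was solved for whole reads in 3 libraries, and only genes with a single solution were used per library. The unresolved genes are very abundant and held 20.7% (Not1 RNAi), 14.5% (Pop2 RNAi) and 18.3% (LacZ RNAi) of normalized counts, so the resolved reads understate depth. The difference of the 2 log2 fold changes was divided by its standard error, with the variance shared through LacZ RNAi removed under a negative binomial model with 1 dispersion per gene, for 8996 genes. For 55 genes the root of the summed squares stood in. The dispersion came from the Not1 RNAi error and predicted the Pop2 RNAi error within 1% for 97.0% of genes. Two-sided normal p-values were adjusted by Benjamini-Hochberg over 9051 genes. This treats the dispersion as known and equal in all groups, which a shallow or deviating library can violate. The contrast without Not1 RNAi library C reused this dispersion with 1 library fewer. Alternatives used limma 3.58.1 on log2(value + 1) per library.

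The scripts were tested on simulated data with known differences, in which no library was made to deviate. Samples were grouped by their titles, and the labels call them biological replicates. Members and the 28 gene lists were chosen with earlier results of these data known. Named genes are the targets; the 12 highest and 12 lowest differences of called genes that have a symbol, a mean of at least 20 and no overlap between libraries; up to 4 called members per list with the smallest p; genes of opposite calls; and the 6 genes closest to equal at a mean of at least 1000. Gapdh2, CycB3, dup, CycD, Rbf, srp and Hml fall outside that rule and were chosen after their values were seen. Values are relative to the size factors: a change shared by all mRNAs, or in poly(A) selection, cannot be told apart from none.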

Additional observations from a re-analysis of the deposited data

Results flagged for a closer look

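Not1 and CG12512 moved in opposite directions from the control in the 2 knockdowns, and the difference itself was tested. The difference for Not1 was -4.02 (log2, Not1 RNAi minus Pop2 RNAi) and is that of a targeted gene. For CG12512 it was 2.07, and 2.18 without Not1 RNAi library C. CG12512 lies on the minus strand of chromosome 2L beside fusl (dm6 chr2L:5330470-5338073, minus strand), which was also higher in Not1 RNAi, by 2.36. Whether the genes share reads was not tested.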

How the results depend on the processing

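The number of calls depended on the processing, and so did the share of higher ones, 60.8% as reported and 48.9% when centred. The called genes that had a value (895 to 1014, by alternative) kept their sign in each alternative run. They were called on largely the same libraries, so a kept sign is no separate support. Values follow as total, higher, lower, at least 2-fold and list members, against 1014, 617, 397, 349 and 70 as reported. The root of summed squares gave 115, 49, 66, 59 and 13. Limma over all RNAi groups gave 405, 220, 185, 221 and 31, and over the 6 libraries alone 203, 139, 64, 133 and 15. Scaled by library totals it gave 226, 69, 157, 168 and 23; 30.5% of calls were then higher against 54.3%, and the median of all genes was -0.22. With library quality weights it gave 2906, 1590, 1316, 575 and 190. Alternatives chosen after seeing the data were limma with a pseudocount of 5 (529, 315 and 214, with 39 list members), limma without Not1 RNAi and LacZ RNAi libraries C (2289, 1236 and 1053, with 162 list members) and the negative binomial contrast without Not1 RNAi library C (465, 273, 192, 172 and 37). With 1 library left out (limma), totals ran from 50 to 516, higher from 25 to 267, lower from 25 to 249, at least 2-fold from 42 to 354 and list members from 5 to 33. Limma without Pop2 RNAi libraries A, B and C gave 123, 50 and 65 calls, and without Not1 RNAi libraries A, B and C 208, 516 and 379. A limit of 1.5-fold gave 810 genes and of 4-fold 59. Opposite calls at the authors' adjusted p below 0.01 numbered 1, with CG12512 lost. Filters at a mean of 10 and 50 and ratios of means gave 955 to 1104 calls. Of 79 called named genes, 32 lost the call in the contrast without library C and 60 with the root of summed squares. In limma 35 lost it over all groups, 50 over the 6 libraries and 48 by totals. With 1 library left out 32 to 67 did (67 without Pop2 RNAi library B or C). Limma with library quality weights lost 0, as did limma without both libraries C. Limma with a pseudocount of 5 lost 27 and the centred contrast 5. Among named genes, sign changes occurred only in those closest to equal; genes that were not called were not counted here. With quality weights Ist1 was 0.12, chas 0.090, puf -0.061, CG17202 0.27 and scra 0.061. Without both libraries C Ist1 was 0.090, chas 0.082, puf -0.015, CG17202 0.20 and scra 0.085, and in the contrast without Not1 RNAi library C 0.091, 0.078, -0.033, 0.19 and 0.084. HBS1 was -0.013 with either pseudocount on the ratio of means, -0.057 centred, -0.021 in limma (all groups, 6 libraries, pseudocount 5) and -0.28 by totals. For puf it was -0.056 centred and -0.24 by totals. With 1 library left out the values ran from -0.11 to 0.090 (Ist1), -0.093 to 0.10 (HBS1), -0.072 to 0.082 (chas), -0.14 to 0.13 (puf), -0.17 to 0.20 (CG17202) and -0.060 to 0.085 (scra). The cause was not tested. No paired analysis was possible because the deposited columns are group means and the recovered libraries carry no replicate numbers.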

Other observations

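After the values were seen, 4 further gene groups were counted, and they are described without a test. Of 27 piRNA pathway genes, 10 were lower in Not1 RNAi than in Pop2 RNAi and 0 higher (6 lower without Not1 RNAi library C), beside 4.39% of all genes tested. They included krimp (-0.88), qin (-0.94), spn-E (-1.20) and del (-1.01), with a list median of -0.31. Of 35 genes of DNA repair and the replication checkpoint, 9 were lower and 0 higher (7 lower without library C), beside 4.39% lower among all genes tested, with a median of -0.56. Besides XRCC1, RecQ5 and rad50 these included Claspin (-1.30), Msh6 (-1.12) and Brca2 (-0.83).

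Among 18 nucleoporin genes 6 were lower and 0 higher (4 lower without library C), beside the same 4.39%, among them Nup358 (-0.83) and Nup62 (-0.83), with a median of -0.32. Of 17 tetraspanin genes 3 were higher and 0 lower (2 higher without library C), beside 6.82% higher among all genes tested, and Tsp3A differed by 0.69.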
